A study of Mus musculus with 18 samples.

Results

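RNA was compared between bone and bone marrow in sorted GFP-negative cells of control mice. The members are the 3 libraries titled as control, bone, GFP-negative and Tm-positive, set against the 3 titled as control, marrow, GFP-negative and Tm-positive, 6 of the 18 libraries of the series. They were chosen by their titles and not by any measured value. In the series, cells derived from osterix-expressing progenitors were isolated from 2 genotypes, control and conditional Pth1r knockout, each of which gave 3 sorted subsets. All 6 libraries compared here carry the genotype label wild type and come from mice at postnatal day 21. The bone group is labelled as bone cells, and the marrow group as bone marrow stromal cells. GFP and Tm are the sort markers as the titles write them, and the sources used here do not give the promoter or allele behind either. Whether 3 libraries of a group stand for 3 animals is not stated in the labels, so a p-value here reflects only how far these libraries varied, and part of that may be technical.

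Osterix, the product of Sp7, is a transcription factor that marks progenitors of the bone-forming lineage, and cells that descend from such progenitors include osteoblasts, osteocytes, stromal cells of the marrow and growth plate cartilage cells. Marrow stromal cells that express the chemokine Cxcl12 and the leptin receptor are known for holding blood stem cells in place and for giving rise to marrow fat cells. Osteoblasts and osteocytes lie in and on the bone and make and mineralise its collagen matrix. Parathyroid hormone and its related protein act on these cells through the receptor Pth1r.

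Values are read counts per gene given as CPM, a gene's counts over the size of its library on a fixed scale, with a trimmed-mean scaling factor for each library (TMM). A log2 fold change is bone over marrow, so a positive one means higher in bone, and is given ± its standard error. Error terms on CPM are SDs over 3 libraries. A gene was called when its p from edgeR's quasi-likelihood test, adjusted over all genes tested by the Benjamini-Hochberg method, was under 0.05. Library totals ran from 16561869 to 20522096 counts in bone and from 18012217 to 22251365 in marrow, with 18486 to 18879 genes detected in a bone library and 19329 to 19997 in a marrow library. A count of 0 allows up to 3 counts, which is 0.162 to 0.194 CPM in bone and 0.118 to 0.153 CPM in marrow, and such floors cover counting error only since the protocol in the labels names no molecular identifiers. The 10 most counted genes took 38.7% to 41.1% of a bone library and 27.8% to 33.8% of a marrow library. The 1st principal component of the scaled log values held 72.3% of their variance and separated the 3 bone libraries from the 3 marrow libraries. Summed Y-linked transcripts were at 99.3, 95.6 and 4.02 CPM in the bone libraries, against 106, 98.6 and 3.99 CPM in the marrow libraries, so library 3 differed from libraries 1 and 2 in both groups.

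Of 13621 genes tested, 5488 (40.3%) were called. Of these, 2713 (19.9% of those tested) were higher in bone and 2775 (20.4%) lower. These shares are the background for every count of called list members below. At least 2-fold differences were called for 997 genes higher in bone (7.32%) and 1396 lower (10.2%). The median log2 fold change of all genes was -0.04. These counts rest on the scaling: with library totals alone the median gene's log2 fold change shifted by -0.24, and 1662 genes were called higher and 4532 lower. Without same-numbered libraries as a block, 5365 genes were called. In bulk libraries, fewer cells of a type and less RNA per cell cannot be told apart.

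**Figure D1:**
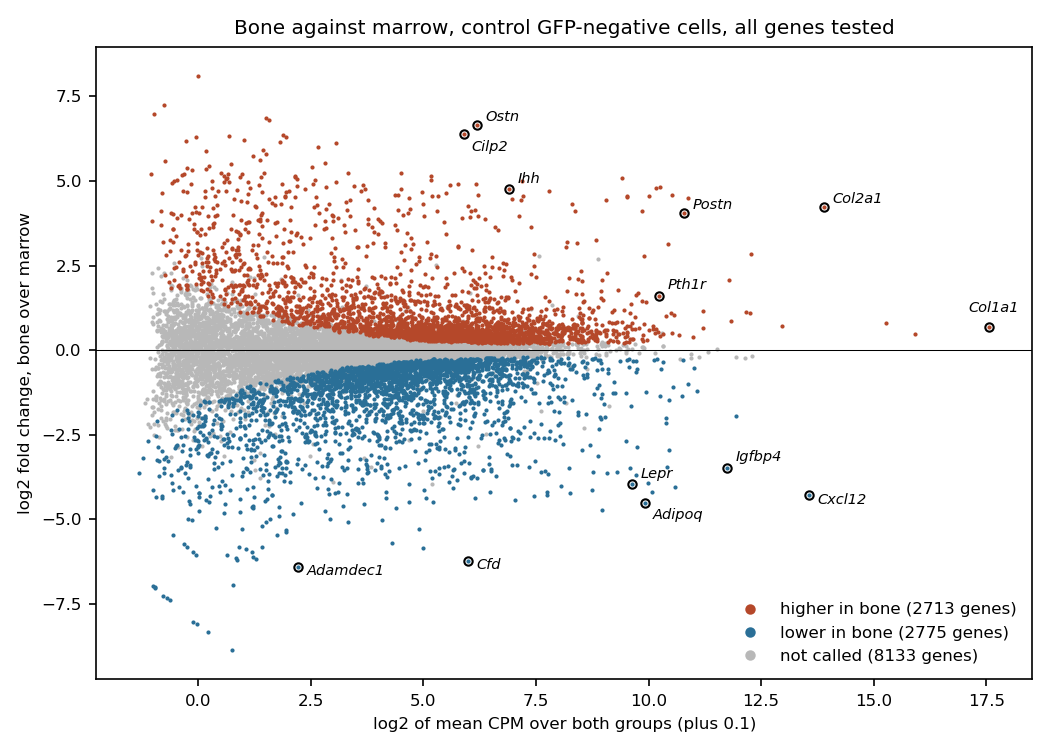
Log2 fold change, bone over marrow, of each of the 13621 genes tested (vertical axis) against the log2 of its mean CPM over both groups plus 0.1 (horizontal axis). Red points are the 2713 genes called higher in bone, blue points the 2775 called lower and grey points the rest, and the circled genes are named in the text, among them Ostn at 6.65 and Cfd at -6.23.

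Both groups were dominated by the same bone matrix transcripts. On the TPM scale, which corrects for gene length and sums to the same total in every library, Col1a1, Sparc, Bglap and Col1a2 ranked 1 to 4 in each group. Col1a1, which encodes the main chain of type I collagen, averaged 121495 ± 7794 TPM in bone and 88140 ± 13773 TPM in marrow. Col2a1 ranked 7th in bone at 10383 ± 1652 TPM, against 642 TPM in marrow. Cxcl12 ranked 8th in marrow at 10965 ± 2338 TPM, against 482 TPM in bone. The members of this ranking were picked by their level after it was seen.

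Genes of the bone-forming lineage were present in both groups and were mostly moderately higher in bone. Of 18 transcription factors of osteoblasts, 10 were higher and 3 lower, with a median log2 fold change of 0.41. Of 16 bone matrix genes, 12 were higher and 1 lower (median 0.72), and of 14 tested genes of mineralisation and phosphate handling, 7 were higher and 0 lower (median 0.98). Of 17 tested genes of osteocytes and late osteoblasts, 13 were higher and 1 lower (median 0.89). These counts stand beside a background of 19.9% higher and 20.4% lower over all genes.

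Pth1r, the receptor of parathyroid hormone, lies on chr9:110722085-110747145 (mm10, minus strand). It had 1729, 1722 and 1970 CPM in the bone libraries, against 570, 615 and 593 CPM in the marrow libraries. The groups did not overlap, and the receptor was about 3.04-fold higher in bone (log2 fold change 1.61 ± 0.08, adjusted p = 7.44e-06). Its level stayed past the threshold in all 11 alternative settings, from a log2 fold change of 1.36 to one of 1.68. Around the receptor, 4 of 23 tested pathway genes were higher and 6 lower (median -0.19). Over all genes 19.9% were higher and 20.4% lower, so these shares are near the background. The median of these pathway genes changed sign without replicate 3, to 0.11. Nr4a2, an orphan nuclear receptor induced by cyclic AMP signals, averaged 59.1 ± 1.71 CPM in bone and 20.5 ± 8.02 CPM in marrow (log2 fold change 1.59 ± 0.21, adjusted p = 0.00153). The adenylyl cyclases Adcy3 and Adcy9 and the protein kinase A regulatory subunit Prkar1a were lower, at -0.80, -1.14 and -0.58 on the log2 scale.

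Sp7 had 255, 252 and 252 CPM in the bone libraries, against 159, 189 and 176 CPM in the marrow libraries. The 3 bone libraries differed by little and all lay above the marrow libraries (log2 fold change 0.54 ± 0.08, adjusted p = 0.00112). Runx2, the other master regulator of osteoblasts, had 44.2, 60.8 and 54 CPM in the bone libraries, against 39.4, 51.6 and 43.4 CPM in the marrow libraries. Its groups overlapped and it did not pass the threshold (log2 fold change 0.24 ± 0.08, adjusted p = 0.0569), and over the 11 alternatives its log2 fold change ran from -0.00 to 0.43 and its adjusted p from 0.00673 to 0.976. Cbfb, the partner subunit of Runx proteins, averaged 238 ± 8.01 CPM in bone and 130 ± 17.2 CPM in marrow (log2 fold change 0.88 ± 0.08, adjusted p = 1.54e-04). Atf4, a stress-responsive factor that osteoblasts need for collagen synthesis, was higher at 0.90 and Twist1 at 0.61. Barx1, a homeobox gene, averaged 4.95 ± 1.77 CPM in bone and 0.196 ± 0.172 CPM in marrow.

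Among matrix genes, Col1a1 had 244841, 251448 and 221343 CPM in the bone libraries, against 118941, 175987 and 155673 CPM in the marrow libraries. The groups did not overlap and Col1a1 was called (log2 fold change 0.69 ± 0.17, adjusted p = 0.0134), though without replicate 3 it was not (the adjusted p ran from 3.95e-08 to 0.07 over the alternatives). Sparc, a collagen-binding protein of bone, averaged 49890 ± 5132 CPM in bone and 28886 ± 5211 CPM in marrow (log2 fold change 0.80 ± 0.12, adjusted p = 0.00154). Bglap, which encodes osteocalcin, had 5405, 8117 and 6270 CPM in the bone libraries, against 2243, 4681 and 2733 CPM in the marrow libraries, with library 2 the highest of each group. Bglap was 2.12-fold higher in bone (log2 fold change 1.09 ± 0.12, adjusted p = 2.81e-04), and its near-identical neighbour Bglap2 was higher by the same measure at 1.02. Reads of such copies cannot be assigned with certainty, since the sources used here do not give how reads with several matches were counted. Larger differences were seen for Omd, a keratan sulfate proteoglycan of bone, at 600 ± 62.4 CPM in bone and 121 ± 24.2 CPM in marrow (log2 fold change 2.33 ± 0.15, adjusted p = 7.17e-05), and for Smpd3, a sphingomyelinase needed for bone mineral, at 1313 ± 130 CPM in bone and 415 ± 106 CPM in marrow (log2 fold change 1.69 ± 0.12, adjusted p = 4.10e-05). Spp1, which encodes osteopontin, averaged 4677 ± 387 CPM in bone and 5359 ± 1280 CPM in marrow and was not called (adjusted p = 0.286), though with library totals alone it was called lower at -0.41 (adjusted p = 0.0197).

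Alpl, the alkaline phosphatase that frees phosphate for mineral, had 3096, 3363 and 3360 CPM in the bone libraries, against 1278, 1692 and 1460 CPM in the marrow libraries. All bone libraries were above all marrow libraries (log2 fold change 1.16 ± 0.09, adjusted p = 5.90e-05). The annexins Anxa2 and Anxa5 were higher at 1.13 and 0.98, as was the phosphate transporter Slc20a2 at 1.05. Of the osteocyte genes, Pdpn, a membrane protein of young osteocytes with growing dendrites, averaged 22.8 ± 2.41 CPM in bone and 3.38 ± 0.844 CPM in marrow (log2 fold change 2.77 ± 0.23, adjusted p = 7.94e-05). Fbln7 had 118, 131 and 130 CPM in the bone libraries, against 6, 7.38 and 8.89 CPM in the marrow libraries, a clear separation (log2 fold change 4.10 ± 0.11, adjusted p = 5.25e-07). Dmp1, a phosphoprotein of the osteocyte matrix, averaged 911 ± 251 CPM in bone and 551 ± 126 CPM in marrow (log2 fold change 0.72 ± 0.19, adjusted p = 0.0278), and its call was lost in 5 of the 11 alternatives, among them without replicate 1 (adjusted p = 0.16) and without replicate 3 (adjusted p = 0.0637), with adjusted p from 0.00156 to 0.16. Sost, which encodes the osteocyte Wnt inhibitor sclerostin, was low in bone and under the level of 3 counts in marrow, with 0.972, 2.06 and 0.927 CPM in the bone libraries, against 0, 0.0453 and 0.0511 CPM in the marrow libraries. Gja1, the main gap junction protein of bone cells, averaged 2956 ± 68.9 CPM in bone and 2905 ± 147 CPM in marrow and was not called (adjusted p = 0.82).

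Of the 33 gene lists, the 2 lists of cartilage matrix genes had the highest medians in bone over marrow. The lists were chosen with earlier results of these data known, so this rank is a description only. All 8 cartilage collagens were higher (median log2 fold change 3.77), as were 18 of 19 cartilage proteoglycans and other matrix genes (median 4.49), and 8 of 15 cartilage transcription factors and hedgehog genes were higher and 1 lower (median 1.46). Col2a1, the collagen of cartilage, lies on chr15:97975602-98004695 (mm10, minus strand). It had 24408, 28221 and 33792 CPM in the bone libraries, against 1330, 1847 and 1442 CPM in the marrow libraries. The lowest bone library was above the highest marrow library by a wide margin, and the mean difference was 18.7-fold (log2 fold change 4.23 ± 0.15, adjusted p = 1.35e-06). Sox9, the factor that drives cartilage formation, had 507, 480 and 592 CPM in the bone libraries, against 57.4, 56.8 and 56.6 CPM in the marrow libraries (log2 fold change 3.20 ± 0.09, adjusted p = 5.25e-07). Its 3 marrow libraries were nearly equal.

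The chains of type IX collagen, which decorates type II collagen fibrils, had log2 fold changes of 4.57 for Col9a1, 4.52 for Col9a2 and 4.58 for Col9a3. Col9a2 had 1224, 1390 and 1632 CPM in the bone libraries, against 57.7, 65.4 and 60.5 CPM in the marrow libraries, with no overlap. Chad, a leucine-rich matrix protein that cartilage cells bind, averaged 1018 ± 66.7 CPM in bone and 47.3 ± 2.4 CPM in marrow (log2 fold change 4.43 ± 0.08, adjusted p = 4.19e-07). Comp, a pentameric matrix protein, averaged 3607 ± 593 CPM in bone and 159 ± 19 CPM in marrow (log2 fold change 4.49 ± 0.13, adjusted p = 6.49e-07), and Ucma, a small protein of resting cartilage, averaged 69.8 ± 7.66 CPM in bone and 2.13 ± 0.339 CPM in marrow (log2 fold change 5.03 ± 0.16, adjusted p = 7.53e-07). Matn1, a filament-forming cartilage protein, had 559, 569 and 753 CPM in the bone libraries, against 36.6, 36.8 and 34.3 CPM in the marrow libraries (log2 fold change 4.11 ± 0.12, adjusted p = 8.74e-07). Ihh, the hedgehog ligand made by maturing growth plate cells, had 233, 207 and 250 CPM in the bone libraries, against 9.67, 8.74 and 6.8 CPM in the marrow libraries (log2 fold change 4.77 ± 0.14, adjusted p = 1.12e-06). Foxa3 and Foxa2, forkhead factors of maturing cartilage cells, were higher at 4.56 and 4.32. Smo, the membrane protein that passes on the hedgehog signal, was lower in bone, at 90.9 ± 6.26 CPM in bone and 152 ± 23.3 CPM in marrow (log2 fold change -0.73 ± 0.11, adjusted p = 0.00173).

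**Figure D2:**
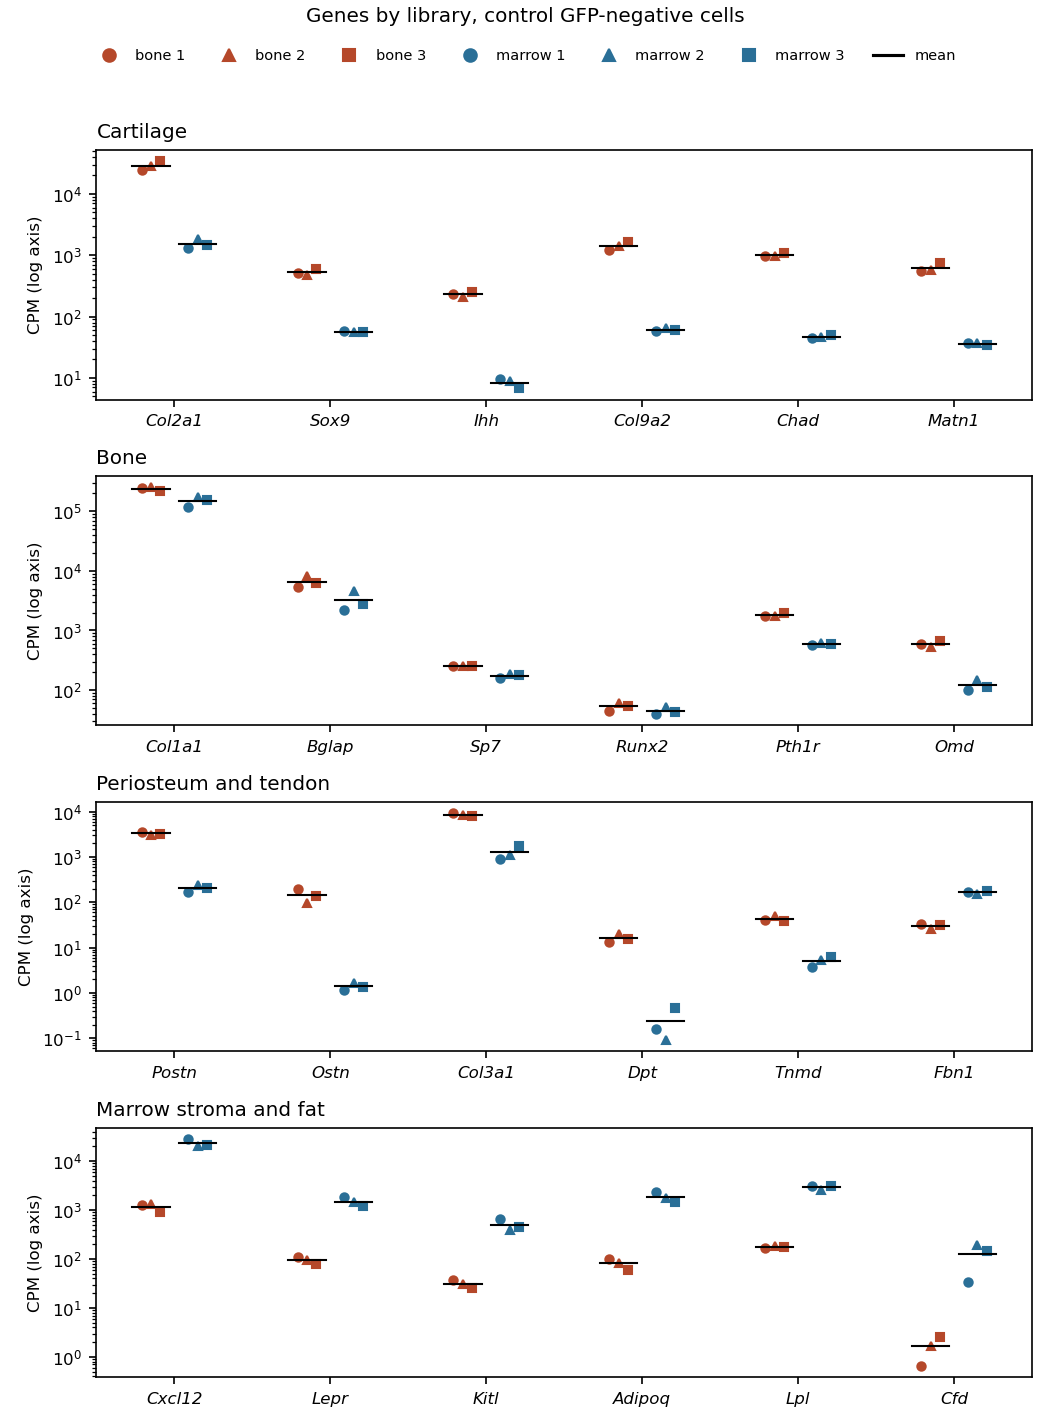
CPM (log axis) of 24 genes in the 3 bone libraries (red) and the 3 marrow libraries (blue), with circles, triangles and squares for libraries 1, 2 and 3 and a black bar for the mean of each group. The bone means of the cartilage genes lie above the marrow means (28807 against 1540 CPM for Col2a1), the bars of Runx2 lie close together, and Cxcl12, Lepr, Kitl, Adipoq, Lpl and Cfd lie higher in marrow.

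The promoters of Matn1 and Bglap are shown as examples of a cartilage gene and a bone gene that were higher in bone, and those of Cxcl12 and Adipoq as examples of genes that were lower. Each is the 250 bases before the gene's start, 5′ to 3′ on the gene's strand, from RefSeq on build GRCm38.p6. Capitals mark every match, on either strand, to 6 short motifs that were searched. The RUNX core was searched as TGTGGT and the SOX core as ACAATG. The GC box was GGGCGG and the TATA box was TATAAA. The C/EBP motif was TTGCNNAA, and the EBF motif was TCCC followed by any 2 bases and then by GGGA.
Matn1 (chr4:130944135-130944384, plus strand): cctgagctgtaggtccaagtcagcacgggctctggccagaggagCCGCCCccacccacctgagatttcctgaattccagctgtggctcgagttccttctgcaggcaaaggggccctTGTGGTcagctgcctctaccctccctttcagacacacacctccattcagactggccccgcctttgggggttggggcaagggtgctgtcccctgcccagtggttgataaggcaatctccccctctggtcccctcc
Bglap (chr3:88384467-88384716, minus strand): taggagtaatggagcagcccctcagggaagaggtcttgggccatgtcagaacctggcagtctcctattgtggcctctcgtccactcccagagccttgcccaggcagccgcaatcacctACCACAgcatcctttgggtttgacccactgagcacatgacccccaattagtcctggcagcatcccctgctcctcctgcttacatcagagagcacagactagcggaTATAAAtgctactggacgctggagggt
Cxcl12 (chr6:117168285-117168534, plus strand): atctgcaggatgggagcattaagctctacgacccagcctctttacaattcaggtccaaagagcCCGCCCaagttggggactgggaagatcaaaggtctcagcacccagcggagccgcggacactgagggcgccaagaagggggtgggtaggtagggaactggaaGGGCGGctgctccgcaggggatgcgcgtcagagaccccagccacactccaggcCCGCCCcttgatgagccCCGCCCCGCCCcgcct
Adipoq (chr16:23146286-23146535, plus strand): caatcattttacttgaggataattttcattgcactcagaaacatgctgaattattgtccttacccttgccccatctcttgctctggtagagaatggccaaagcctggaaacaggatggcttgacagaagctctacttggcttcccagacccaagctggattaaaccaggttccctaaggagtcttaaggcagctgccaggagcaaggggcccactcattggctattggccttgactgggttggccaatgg
The Matn1 window held 1 RUNX core and 1 GC box, and the Bglap window 1 RUNX core and 1 TATA box. Cxcl12 had 5 GC boxes, of which the last 2 overlap, and Adipoq held 0 matches to the 6 motifs. A promoter was found for 10229 of the 13621 genes tested. The RUNX core was in 10% of the 739 promoters of genes at least 2-fold higher in bone, in 10.8% of the 1003 of genes at least 2-fold lower and in 10.2% of all 10229. In the same order (higher, lower, all), the C/EBP motif was in 6.5%, 10.1% and 7.17% of promoters, the TATA box in 10.1%, 8.47% and 6.39%, and the GC box in 59.8%, 52.5% and 60.3%. For the SOX core the shares were 5.28%, 5.88% and 5.55%, and for EBF 0.677%, 1.3% and 0.87%. A match is a string of letters in this window and was not tested as a binding site.

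Genes of fibroblasts, periosteum and tendon were also mostly higher in bone. Of 25 fibroblast and periosteal matrix genes, 19 were higher and 3 lower (median log2 fold change 1.96, and 1.30 without replicate 1), and of 10 tendon and ligament genes 7 were higher and 2 lower (median 1.49). Postn, which encodes periostin, a matrix protein of the periosteum, had 3615, 3034 and 3311 CPM in the bone libraries, against 165, 238 and 204 CPM in the marrow libraries (log2 fold change 4.05 ± 0.16, adjusted p = 4.45e-06). Col3a1, the collagen of reticular and loose connective tissue, had 9212, 8464 and 8278 CPM in the bone libraries, against 915, 1122 and 1747 CPM in the marrow libraries (log2 fold change 2.83 ± 0.21, adjusted p = 1.61e-04), with marrow library 3 the highest of its group. Dpt, which encodes dermatopontin and is used as a marker of fibroblasts, had 13.2, 19.6 and 15.4 CPM in the bone libraries, against 0.158, 0.0906 and 0.46 CPM in the marrow libraries (log2 fold change 6.11 ± 0.42, adjusted p = 3.45e-05). Marrow library 2 was under the level that 3 counts give, so the fold change of Dpt rests on few counts. Thbs2 and Col12a1 were higher at 2.08 and 2.24, and Dcn, a small collagen-binding proteoglycan, at 1.14. Fbn1, the fibrillin of elastic microfibrils, went the other way, at 30.2 ± 4.01 CPM in bone and 166 ± 12.3 CPM in marrow (log2 fold change -2.46 ± 0.08, adjusted p = 1.06e-06).

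Tnmd, a membrane protein of tendon cells, averaged 43.2 ± 6.89 CPM in bone and 5 ± 1.24 CPM in marrow (log2 fold change 3.12 ± 0.18, adjusted p = 1.22e-05). Scx, the transcription factor of tendon progenitors, averaged 30.5 ± 4.61 CPM in bone and 10.7 ± 0.812 CPM in marrow (log2 fold change 1.5 ± 0.15, adjusted p = 2.10e-04). Kera, a proteoglycan of tendon and cornea, had 3.43, 15 and 1.85 CPM in the bone libraries, against 0.118, 0.0453 and 0.0511 CPM in the marrow libraries, with bone library 2 the highest. Fmod, listed with both cartilage and tendon, averaged 2491 ± 115 CPM in bone and 284 ± 45.5 CPM in marrow (log2 fold change 3.14 ± 0.10, adjusted p = 8.28e-07). Tnc, an extracellular glycoprotein of tendon that the marrow stroma list also holds, was lower in bone (log2 fold change -1.47 ± 0.11, adjusted p = 4.09e-05).

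The marrow stroma list moved the other way. Of 22 genes of reticular marrow stroma, 0 were higher in bone and 21 lower, with a median log2 fold change of -3.57 and values from -4.71 to 0.07. Cxcl12, the chemokine that holds blood stem and progenitor cells in the marrow, lies on chr6:117168535-117181367 (mm10, plus strand). It had 1298, 1314 and 932 CPM in the bone libraries, against 27825, 20531 and 20874 CPM in the marrow libraries. The groups were far apart, 19.6-fold on average (log2 fold change -4.29 ± 0.15, adjusted p = 1.01e-06). Lepr, the leptin receptor used to identify these cells, had 110, 93.3 and 80.8 CPM in the bone libraries, against 1840, 1427 and 1203 CPM in the marrow libraries (log2 fold change -3.96 ± 0.08, adjusted p = 4.55e-07). In both groups replicate 1 was the highest and replicate 3 the lowest for Lepr.

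Vcam1, an adhesion molecule for blood cells, had 137, 128 and 109 CPM in the bone libraries, against 2396, 1787 and 1540 CPM in the marrow libraries (log2 fold change -3.92 ± 0.10, adjusted p = 5.25e-07). Hp, which encodes haptoglobin, a haemoglobin-binding protein, averaged 111 ± 20.6 CPM in bone and 2043 ± 424 CPM in marrow (log2 fold change -4.20 ± 0.12, adjusted p = 5.25e-07), and the chemokine Cxcl14 averaged 80.6 ± 5.69 CPM in bone and 1006 ± 91 CPM in marrow (log2 fold change -3.64 ± 0.10, adjusted p = 5.25e-07). Among 18 tested ligands and other regulators of blood cells, 2 were higher in bone and 11 lower (median -2.76). Kitl, the stem cell factor, had 37, 30.3 and 25.6 CPM in the bone libraries, against 670, 392 and 447 CPM in the marrow libraries (log2 fold change -4.0 ± 0.11, adjusted p = 5.91e-07). Vegfc, a growth factor of lymphatic and sinusoidal vessels, was lower at -3.71. Ptn, which encodes the heparin-binding growth factor pleiotrophin, was higher, at 610 ± 86.2 CPM in bone and 67.3 ± 5.24 CPM in marrow (log2 fold change 3.17 ± 0.09, adjusted p = 5.25e-07).

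Of 9 tested regulators of osteoclasts, the cells that resorb bone, 2 were higher and 3 lower (median 0.15). Over all genes 19.9% were higher and 20.4% lower, and a list of 9 is too short to be set apart from these shares. The 3 lower regulators are ligands that drive osteoclast or macrophage formation. Csf1, the macrophage growth factor, had 83.5, 74.4 and 67.9 CPM in the bone libraries, against 546, 377 and 414 CPM in the marrow libraries (log2 fold change -2.55 ± 0.09, adjusted p = 1.29e-06). Tnfsf11, which encodes RANKL, had 23, 17.6 and 18.7 CPM in the bone libraries, against 116, 79.5 and 83.1 CPM in the marrow libraries (log2 fold change -2.22 ± 0.09, adjusted p = 2.22e-06). Il34, a further ligand of the Csf1 receptor, averaged 7.03 ± 1.5 CPM in bone and 100 ± 22.7 CPM in marrow (log2 fold change -3.83 ± 0.10, adjusted p = 5.03e-07). Tnfrsf11b, which encodes the decoy receptor of RANKL, had 46.5, 44.9 and 52.4 CPM in the bone libraries, against 24, 27.5 and 26.2 CPM in the marrow libraries and was higher (log2 fold change 0.89 ± 0.10, adjusted p = 3.85e-04). Wnt5a averaged 30.8 ± 7.18 CPM in bone and 13.5 ± 3.95 CPM in marrow (log2 fold change 1.21 ± 0.28, adjusted p = 0.017), and its call was lost in 3 of the 11 alternatives, among them without replicate 1 (adjusted p = 0.0741) and without replicate 2 (adjusted p = 0.117), with adjusted p from 2.70e-05 to 0.117. The list median was -0.29 without replicate 1, 0.43 without replicate 2 and 0.41 without replicate 3.

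Fat cell genes were lower in bone. Of 24, 1 was higher and 19 lower (median log2 fold change -1.96). Adipoq, which encodes the fat cell hormone adiponectin, lies on chr16:23146536-23158028 (mm10, plus strand). It had 102, 82.4 and 59.3 CPM in the bone libraries, against 2376, 1728 and 1448 CPM in the marrow libraries (log2 fold change -4.51 ± 0.09, adjusted p = 4.19e-07). The highest bone library was far below the lowest marrow library, and replicate 1 was the highest in both groups. Pparg, the master regulator of fat cells, had 12, 9.69 and 5.87 CPM in the bone libraries, against 160, 98.4 and 114 CPM in the marrow libraries (log2 fold change -3.77 ± 0.18, adjusted p = 1.16e-05). Lpl, the lipase that frees fatty acids from lipoproteins, had 171, 185 and 172 CPM in the bone libraries, against 3043, 2576 and 3131 CPM in the marrow libraries (log2 fold change -4.05 ± 0.11, adjusted p = 5.25e-07). Apoe and Agt, which encode apolipoprotein E and angiotensinogen, were lower at -3.59 and -3.68. The lipid droplet protein Cidec, a marker of mature fat cells, was low in both groups, with 0, 0.271 and 0.247 CPM in the bone libraries, against 1.74, 9.87 and 5.26 CPM in the marrow libraries.

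**Figure D3:**
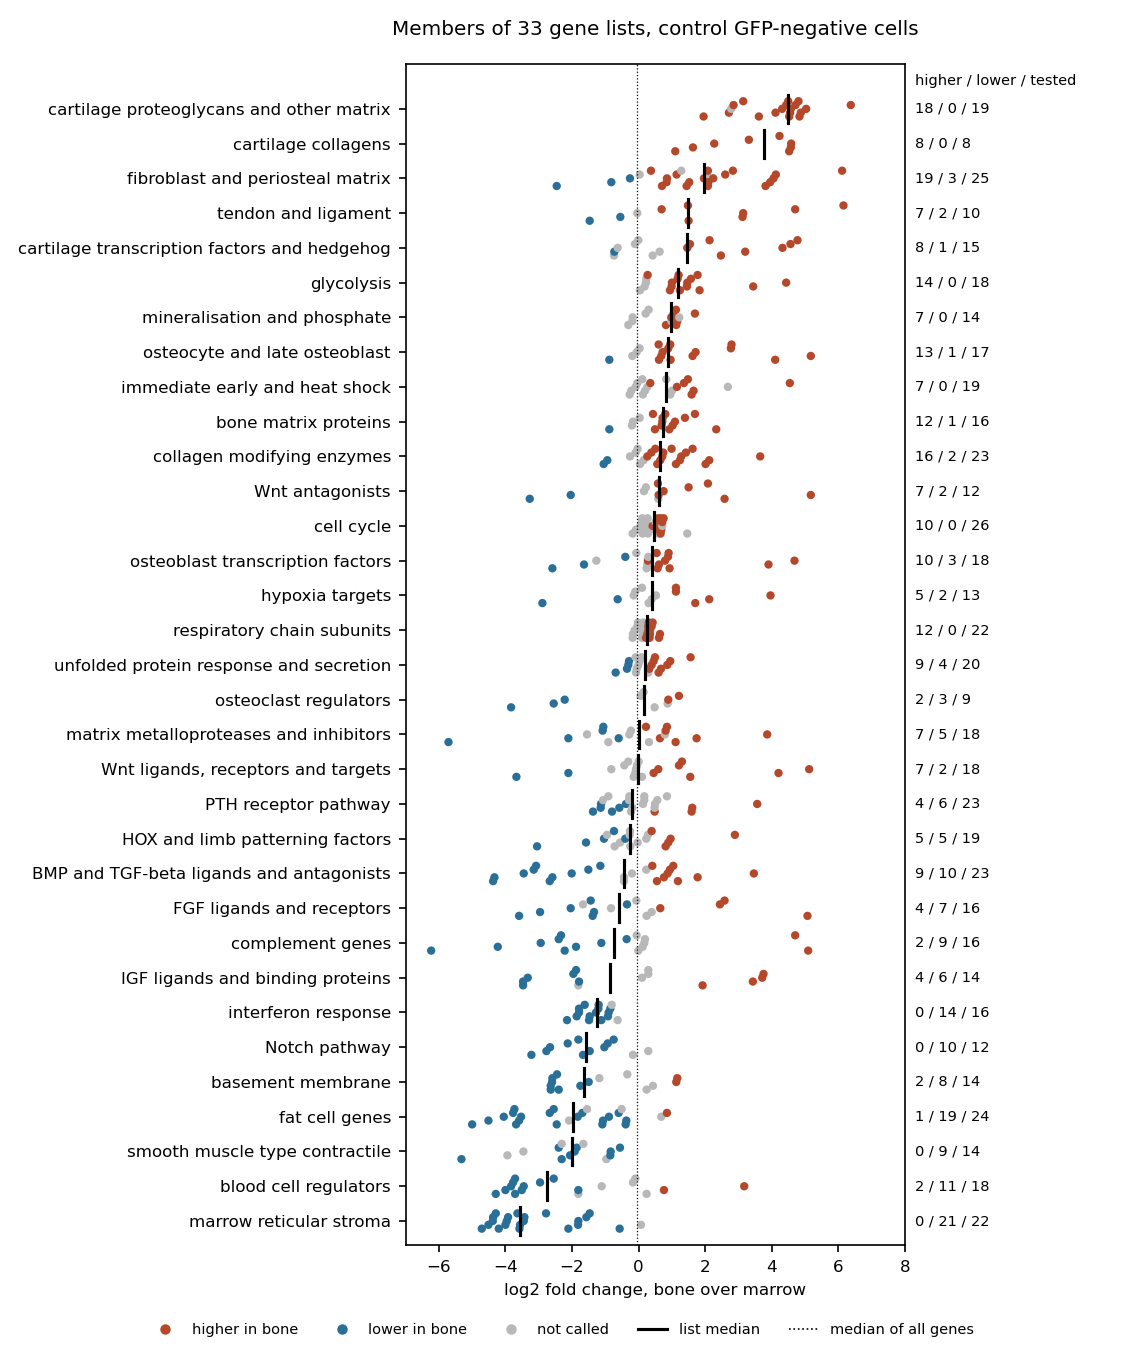
Log2 fold change, bone over marrow, of the tested members of 33 gene lists, ordered by list median (black bars) from 4.49 at the top to -3.57 at the bottom, with the dotted line at the median of all genes, -0.04. Red and blue points are members called higher and lower in bone, grey points were not called, and the figures at the right give the members higher, lower and tested.

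Signalling lists were divided. Of 12 Wnt antagonists, 7 were higher in bone and 2 lower (median log2 fold change 0.60). Frzb, a secreted decoy receptor of Wnt ligands found in cartilage, averaged 111 ± 3.49 CPM in bone and 26.5 ± 5.44 CPM in marrow (log2 fold change 2.08 ± 0.11, adjusted p = 8.08e-06). Sfrp1 and Sfrp4, of the same family, were lower, at -3.27 and -2.04, and Sfrp1 had 34.7, 38.3 and 27.4 CPM in the bone libraries, against 388, 273 and 313 CPM in the marrow libraries. The call of Sfrp4 was lost with no filter on low counts. Wif1, an inhibitor that binds Wnt ligands, averaged 502 ± 25.6 CPM in bone and 344 ± 93.5 CPM in marrow (log2 fold change 0.58 ± 0.11, adjusted p = 0.00587). Of 18 tested Wnt ligands, receptors and targets, 7 were higher and 2 lower (median -0.03, 0.01 without replicate 1 and 0.19 without replicate 2). The 2 lower ones were R-spondins, which strengthen Wnt signals at the receptor: Rspo3 averaged 25.3 ± 5.27 CPM in bone and 109 ± 25.5 CPM in marrow (log2 fold change -2.11 ± 0.12, adjusted p = 1.06e-05) and Rspo2 5.74 ± 1.98 CPM in bone and 75.5 ± 28.3 CPM in marrow (log2 fold change -3.67 ± 0.24, adjusted p = 9.11e-05). Wnt5b, a ligand made by cartilage cells, had 185, 153 and 187 CPM in the bone libraries, against 60.6, 59.9 and 57.6 CPM in the marrow libraries (log2 fold change 1.55 ± 0.09, adjusted p = 1.11e-05), and Wnt16, which protects cortical bone, averaged 8.44 ± 4.94 CPM in bone and 0.23 ± 0.115 CPM in marrow (log2 fold change 5.12 ± 0.46, adjusted p = 1.25e-04).

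Of 23 tested ligands and antagonists of the BMP and TGF-beta pathways, 9 were higher and 10 lower (median -0.44, -0.29 without replicate 1 and -0.23 without replicate 2). The background over all genes was 19.9% higher and 20.4% lower. Nog, which encodes the BMP antagonist noggin, had 45, 38.3 and 52.5 CPM in the bone libraries, against 3.24, 3.71 and 5.57 CPM in the marrow libraries (log2 fold change 3.46 ± 0.15, adjusted p = 3.39e-06). Other antagonists were lower: Fst, which binds activins, averaged 24.4 ± 3.72 CPM in bone and 208 ± 49.5 CPM in marrow (log2 fold change -3.08 ± 0.11, adjusted p = 1.20e-06), and Chrdl1, which binds BMPs, averaged 195 ± 32.6 CPM in bone and 1252 ± 268 CPM in marrow (log2 fold change -2.67 ± 0.15, adjusted p = 2.63e-05). The latent TGF-beta binding proteins Ltbp1 and Ltbp2 were lower at -1.51 and -3.15. Of 14 tested genes of the IGF system, 4 were higher and 6 lower (median -0.85), beside the same background. Igf1, the growth factor, had 116, 102 and 105 CPM in the bone libraries, against 397, 386 and 336 CPM in the marrow libraries (log2 fold change -1.79 ± 0.08, adjusted p = 3.02e-06). The binding proteins Igfbp4 and Igfbp5 were both 11.1-fold lower in bone, Igfbp4 at 563 ± 62.9 CPM in bone and 6285 ± 1162 CPM in marrow and Igfbp5 at 128 ± 15.5 CPM in bone and 1419 ± 217 CPM in marrow. Pappa, the protease that cuts Igfbp4, was lower at -3.33, and Stc2, which blocks that protease, was higher at 3.43.

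Of 16 tested FGF ligands, receptors and targets, 4 were higher and 7 lower (median -0.59), against 19.9% higher and 20.4% lower over all genes. The receptors were divided. Fgfr3, the receptor that restrains growth plate cartilage, had 224, 188 and 149 CPM in the bone libraries, against 35.1, 26.5 and 31.9 CPM in the marrow libraries and was higher (log2 fold change 2.58 ± 0.12, adjusted p = 6.64e-06), as was Fgfr1 (log2 fold change 0.65 ± 0.07, adjusted p = 2.69e-04), while Fgfr2 was lower, at 140 ± 9.67 CPM in bone and 365 ± 57.6 CPM in marrow (log2 fold change -1.38 ± 0.08, adjusted p = 1.06e-05). The ligand Fgf7 and the feedback inhibitors Spry1 and Dusp6 were lower at -2.96, -3.59 and -1.44. Of 12 tested Notch pathway genes, 0 were higher and 10 lower (median -1.57). Notch3, a receptor of mural cells, had 10, 8.34 and 8.46 CPM in the bone libraries, against 44.6, 60.1 and 84.5 CPM in the marrow libraries, with marrow library 3 the highest (log2 fold change -2.77 ± 0.22, adjusted p = 1.62e-04). The ligand Jag1 was lower at -1.81, and the targets Heyl, Hey2 and Hes1 at -2.13, -2.66 and -1.03.

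Matrix assembly genes also differed by group. Of 14 tested basement membrane genes, 2 were higher and 8 lower (median -1.63). Col4a1 and Col4a2, the common chains of type IV collagen, had log2 fold changes of -2.64 and -2.60, and Col4a1 had 71.9, 68.3 and 58.6 CPM in the bone libraries, against 327, 389 and 548 CPM in the marrow libraries. The laminin chains Lamb1, Lamc1 and Lama4 were lower at -2.59, -1.75 and -1.50, and the linker Nid1 at -2.45, while Nid2 was not called (279 ± 22.4 CPM in bone and 240 ± 57 CPM in marrow, adjusted p = 0.187) except without replicate 1 (log2 fold change 0.41, adjusted p = 0.0392). Of 23 enzymes and chaperones of collagen, 16 were higher and 2 lower (median 0.65). The prolyl hydroxylase subunits P4ha1, P4ha2 and P4ha3 were higher at 1.12, 1.42 and 2.12. Serpinh1, the collagen chaperone HSP47, had 10083, 10069 and 9464 CPM in the bone libraries, against 5997, 6495 and 5694 CPM in the marrow libraries (log2 fold change 0.71 ± 0.09, adjusted p = 7.67e-04). Pcolce2, an enhancer of procollagen cleavage, averaged 312 ± 62.6 CPM in bone and 24.5 ± 2.06 CPM in marrow (log2 fold change 3.65 ± 0.14, adjusted p = 3.78e-06), and the crosslinking enzyme Loxl1 was lower (log2 fold change -1.05 ± 0.07, adjusted p = 2.37e-05).

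Of 18 matrix metalloproteases and inhibitors, 7 were higher and 5 lower (median -0.00, and -0.09 to 0.10 when a replicate was left out). The background over all genes was 19.9% higher and 20.4% lower. Mmp2 and Mmp14, its membrane-bound activator, were higher at 1.11 and 0.81. Mmp13, the collagenase of cartilage and bone, had 1148, 773 and 991 CPM in the bone libraries, against 2160, 2101 and 1833 CPM in the marrow libraries and was lower (log2 fold change -1.08 ± 0.12, adjusted p = 4.23e-04). Mmp11 was lower at -2.11, and the inhibitor Timp4 had 1.94, 0.271 and 0.185 CPM in the bone libraries, against 42.3, 28.3 and 44.5 CPM in the marrow libraries (log2 fold change -5.71 ± 0.57, adjusted p = 0.00162). Bone library 3 was at the level that 3 counts give, so the fold change of Timp4 rests on few counts.

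Genes of glycolysis were higher in bone. Of 18, 14 were higher and 0 lower (median log2 fold change 1.19). Ldha, which makes lactate from pyruvate, had 1374, 1333 and 1381 CPM in the bone libraries, against 500, 494 and 499 CPM in the marrow libraries (log2 fold change 1.45 ± 0.07, adjusted p = 5.95e-06). Slc16a3, the lactate exporter, had 86.5, 82.4 and 79 CPM in the bone libraries, against 6.08, 9.74 and 7.31 CPM in the marrow libraries (log2 fold change 3.44 ± 0.15, adjusted p = 4.34e-06). The groups did not overlap for either gene, and the 3 marrow libraries were nearly equal for Ldha. Pkm and Pgk1, the enzymes that yield ATP in glycolysis, were higher at 1.77 and 1.57, and Eno1 at 1.20. Several of these enzymes have near-identical pseudogenes or copies, whose reads the counting may have split.

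Of 13 tested hypoxia targets, 5 were higher and 2 lower (median 0.39), against 19.9% higher and 20.4% lower over all genes. The median was 0.17 without replicate 1, 0.04 without replicate 2 and 1.07 without replicate 3. Hif1a itself averaged 191 ± 5.02 CPM in bone and 179 ± 15.3 CPM in marrow and was not called (adjusted p = 0.371), though with the length trend removed it was called higher at 0.25 (adjusted p = 0.0416). Epas1, which encodes HIF-2 alpha, had 10.6, 15.9 and 11 CPM in the bone libraries, against 87.2, 94.7 and 93.2 CPM in the marrow libraries and was lower (log2 fold change -2.89 ± 0.12, adjusted p = 3.23e-06). Car12, a carbonic anhydrase, averaged 140 ± 17 CPM in bone and 8.99 ± 0.957 CPM in marrow (log2 fold change 3.96 ± 0.14, adjusted p = 1.35e-06), and Bnip3, a mitophagy receptor, averaged 122 ± 15.7 CPM in bone and 28.1 ± 3.05 CPM in marrow (log2 fold change 2.12 ± 0.11, adjusted p = 6.88e-06). Of 22 subunits of the respiratory chain encoded in the nucleus, 12 were higher and 0 lower (median 0.24), but with library totals alone the median was -0.00. Cox7a2 averaged 103 ± 3.7 CPM in bone and 67.9 ± 6.46 CPM in marrow (log2 fold change 0.61 ± 0.08, adjusted p = 6.72e-04). Transcripts of the mitochondrial genome took 0.254% to 0.304% of the counts of a bone library and 0.157% to 0.173% of a marrow library.

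Of 26 cell cycle genes, 10 were higher in bone and 0 lower (median 0.46, 0.22 with library totals alone and 0.30 without replicate 3). Cdk1, the kinase of mitotic entry, had 29.9, 26.8 and 29.1 CPM in the bone libraries, against 19.5, 17.8 and 14.1 CPM in the marrow libraries (log2 fold change 0.75 ± 0.13, adjusted p = 0.00362). Ccnb1, its cyclin, averaged 33.4 ± 2.89 CPM in bone and 21.1 ± 1.77 CPM in marrow (log2 fold change 0.66 ± 0.12, adjusted p = 0.0041). Mcm6, of the replication helicase, averaged 52.6 ± 1.3 CPM in bone and 59.9 ± 8.09 CPM in marrow and was not called (adjusted p = 0.173), though with library totals alone it was called lower at -0.42 (adjusted p = 0.0104). Rrm2 was called at 0.60 but lost the call in 5 of the 11 alternatives, which include leaving out each replicate in turn (adjusted p = 0.082, 0.0562 and 0.0747 without replicates 1, 2 and 3), with adjusted p from 0.00467 to 0.164.

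Of 19 tested immediate early and heat shock genes, 7 were higher and 0 lower (median 0.83), and the median was 0.34 without replicate 1 and 1.26 without replicate 3. Fos was high in both groups, with 4113, 3833 and 4527 CPM in the bone libraries, against 3524, 5366 and 5954 CPM in the marrow libraries, and was not called (adjusted p = 0.269), though it was called lower without replicate 1 (-0.45, adjusted p = 0.0231) and with library totals alone (-0.46, adjusted p = 0.0251). Fosl1, a Fos relative, had 8.62, 14.8 and 11.3 CPM in the bone libraries, against 0.395, 0.408 and 0.664 CPM in the marrow libraries (log2 fold change 4.54 ± 0.32, adjusted p = 3.33e-05). Dnajb1, a heat shock co-chaperone, had 565, 521 and 581 CPM in the bone libraries, against 161, 168 and 204 CPM in the marrow libraries (log2 fold change 1.65 ± 0.08, adjusted p = 5.95e-06). Of 20 genes of the unfolded protein response and secretion, 9 were higher and 4 lower (median 0.18, -0.06 with library totals alone and 0.07 without replicate 3). The background over all genes was 19.9% higher and 20.4% lower. Ddit3, a factor induced by stress of the endoplasmic reticulum, averaged 26 ± 6.02 CPM in bone and 8.64 ± 0.485 CPM in marrow (log2 fold change 1.56 ± 0.15, adjusted p = 1.96e-04), while Hspa5, its main chaperone, was called lower at -0.29 and lost that call in 5 of the 11 alternatives, among them without replicate 1 (adjusted p = 0.197) and without replicate 2 (adjusted p = 0.127), with adjusted p from 0.00377 to 0.197.

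Genes of the interferon response were lower in bone. Of 16 tested, 0 were higher and 14 lower (median log2 fold change -1.24). Oasl2 had 16.5, 20.5 and 8.03 CPM in the bone libraries, against 61.4, 96 and 41.2 CPM in the marrow libraries (log2 fold change -2.15 ± 0.12, adjusted p = 9.62e-06), and its call was lost with all 18 libraries in the fit and no replicate block (adjusted p = 0.0583). Replicate 2 was the highest and replicate 3 the lowest in each group, so that bone library 2 and marrow library 3 came nearest to each other. B2m, the light chain of class I MHC, had 1264, 1629 and 1034 CPM in the bone libraries, against 3007, 3856 and 2232 CPM in the marrow libraries, again with replicate 2 highest in each group (log2 fold change -1.20 ± 0.08, adjusted p = 2.85e-05). Ifitm3 and Bst2, which restrict viruses at membranes, were lower at -1.47 and -1.49.

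Of 16 tested complement genes, 2 were higher and 9 lower (median -0.74, and -1.57 without replicate 2). C1ra and C1s1, the proteases that start the classical pathway, were lower at -2.40 and -2.22, and Serping1, which inhibits them, at 323 ± 47.6 CPM in bone and 2476 ± 393 CPM in marrow (log2 fold change -2.94 ± 0.10, adjusted p = 8.74e-07). Cfd, which encodes the fat cell protease adipsin, had 0.648, 1.68 and 2.6 CPM in the bone libraries, against 33.1, 197 and 148 CPM in the marrow libraries (log2 fold change -6.23 ± 0.22, adjusted p = 2.76e-06). Cfd varied within marrow, with library 1 the lowest, but the groups stayed apart. C1qtnf3, a C1q-related protein of cartilage, was higher in bone, with 1484, 1070 and 1405 CPM in the bone libraries, against 40.5, 40.4 and 34.3 CPM in the marrow libraries (log2 fold change 5.09 ± 0.14, adjusted p = 8.28e-07).

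Contractile genes of the smooth muscle type were lower in bone or were not called. Of 14, 0 were higher in bone and 9 lower (median -1.99), and in all 14 the 3 bone libraries lay below the 3 marrow libraries, which held for 27.5% of all genes tested. Acta2, smooth muscle actin, had 254, 208 and 191 CPM in the bone libraries, against 396, 474 and 1798 CPM in the marrow libraries. Marrow library 3 stood far above the other marrow libraries, and the gene was not called (log2 fold change -1.66 ± 0.72, adjusted p = 0.195). Without replicate 3 its log2 fold change was -0.92 and it was called (adjusted p = 0.00317), as it was with all 18 libraries in the fit (-1.98, adjusted p = 0.00481). Actg2 averaged 6.54 ± 0.631 CPM in bone and 33 ± 8.05 CPM in marrow (log2 fold change -2.31 ± 0.19, adjusted p = 7.41e-05). Cald1, an actin-binding protein found in many cells, averaged 125 ± 3.08 CPM in bone and 224 ± 23.5 CPM in marrow (log2 fold change -0.84 ± 0.08, adjusted p = 1.39e-04). Marrow library 3 was also the highest for Lmod1, Grip2, P2rx1, Gpr50 and Slc22a3, of which P2rx1 had 0.972, 1.41 and 0.68 CPM in the bone libraries, against 11.2, 22.1 and 142 CPM in the marrow libraries and kept its call in 8 of the 11 alternatives, but not without replicate 1 (adjusted p = 0.0787) or replicate 2 (adjusted p = 0.0819), with adjusted p from 3.33e-05 to 0.133.

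By a rule that took the 14 largest differences on each side, the genes most above marrow were led by few-count genes. Slc10a4, an orphan solute carrier, had 6.48, 6.87 and 2.97 CPM in the bone libraries, against 0.118, 0 and 0 CPM in the marrow libraries, where the marrow values are at or under the level that 3 counts give. Its fitted fold change depends on the prior count and is not given. Ostn, which encodes osteocrin, a secreted peptide of periosteum and osteoblasts, lies on chr16:27307489-27351212 (mm10, plus strand) and was measured well in both groups, with 198, 97.6 and 138 CPM in the bone libraries, against 1.18, 1.68 and 1.33 CPM in the marrow libraries (log2 fold change 6.65 ± 0.27, adjusted p = 1.55e-05). Cilp2, a cartilage matrix protein, had 106, 94.5 and 150 CPM in the bone libraries, against 0.671, 2.22 and 1.33 CPM in the marrow libraries (log2 fold change 6.38 ± 0.37, adjusted p = 2.95e-04). Rtl3, a gene derived from a retrotransposon, had 43.1, 35.8 and 53.8 CPM in the bone libraries, against 1.11, 1.31 and 0.971 CPM in the marrow libraries (log2 fold change 5.25 ± 0.21, adjusted p = 2.01e-06). Angptl7, Cilp, Bdkrb1, Kera, Dpt, Cpm, Crabp1, Pla2g10, Mall and Tnni2 complete the side, each with a marrow mean under 1 CPM.

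On the lower side, Cbln1, known as a synapse organiser, had 1.17, 1.19 and 0.865 CPM in the bone libraries, against 71.7, 56.2 and 60.1 CPM in the marrow libraries (log2 fold change -5.85 ± 0.15, adjusted p = 5.25e-07). Negr1, a cell adhesion molecule of neurons, had 1.1, 1.3 and 0.618 CPM in the bone libraries, against 39.7, 30.4 and 27.9 CPM in the marrow libraries (log2 fold change -5.01 ± 0.22, adjusted p = 3.48e-06). Adamdec1, a secreted metalloprotease, had 0.194, 0.0541 and 0.0618 CPM in the bone libraries, against 10.3, 11 and 5.72 CPM in the marrow libraries, where the bone values are at or under the level that 3 counts give, so no fold change is given (adjusted p = 3.03e-05). The replicates of Cbln1 and Negr1 agreed well in marrow, while Adamdec1 in marrow library 3 was the lowest. Adcyap1r1, the receptor of the neuropeptide PACAP, averaged 0.149 ± 0.164 CPM in bone and 5.29 ± 2 CPM in marrow (adjusted p = 5.93e-04). Bone libraries 1 and 3 were under the level that 3 counts give, so no fold change is given for Adcyap1r1. Ptchd1, Slc15a5, Gpr50 and Slc22a3 were also lower, each with a bone mean under 1 CPM.

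The label of each group was checked against defining markers. Both groups held the 6 markers of bone-forming cells, whose summed level ran from 235540 to 266357 CPM in bone and from 126078 to 187554 CPM in marrow. Most of that sum was Col1a1, at 239211 ± 15822 CPM in bone and 150200 ± 28914 CPM in marrow. Of these 6 markers, 4 were called higher in bone and 0 lower. Ibsp (adjusted p = 0.348) and Runx2 (adjusted p = 0.0569) were not called. The 6 marrow stromal markers summed to 1214 to 1670 CPM in bone and 24358 to 33223 CPM in marrow, and the 6 cartilage markers to 29013 to 39893 CPM in bone and 1595 to 2127 CPM in marrow. All 6 cartilage markers were called higher in bone, and the label of that group names bone cells and not cartilage. Markers of blood cells were low, and bone library 2 stood above the other bone libraries for those of red cells, neutrophils and macrophages. The 9 red cell markers summed to 39, 578 and 100 CPM in the bone libraries, against 222, 186 and 237 CPM in the marrow libraries, and the 10 neutrophil markers to 5.44, 166 and 28.8 CPM, against 45.2, 11.3 and 25 CPM. The 10 macrophage markers summed to at most 51.7 CPM in bone and 19.9 CPM in marrow. Among the 9 red cell markers, 0 were called higher in bone and 2 lower. Car1 averaged 2.36 ± 1.49 CPM in bone and 24.2 ± 2.39 CPM in marrow (adjusted p = 0.00265). Car2 averaged 30.8 ± 12.3 CPM in bone and 88.6 ± 3.61 CPM in marrow (adjusted p = 0.0167). Without replicate 2, 4098 genes were called in all.

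Endothelial markers summed to 7.72 to 11.6 CPM in bone and 22.3 to 51.1 CPM in marrow. Of the 3 endothelial markers tested, 0 were higher in bone and 2 lower. Esam, which gave most of the marrow sum, averaged 6.59 ± 1.92 CPM in bone and 29 ± 16.6 CPM in marrow (adjusted p = 0.0285). Emcn averaged 0.759 ± 0.465 CPM in bone and 3.38 ± 1.19 CPM in marrow (adjusted p = 0.00804). The defining genes Pecam1, Cdh5 and Kdr were under 1 CPM in every library. Ptprc, the pan-leukocyte marker, was under 1 CPM in every library as well. The 8 osteoclast markers summed to 364 to 397 CPM in bone and 274 to 301 CPM in marrow, of which Ctsk gave most. Of the 3 osteoclast markers tested, 2 were higher in bone and 1 lower. Acp5 and Ctsk had log2 fold changes of 0.79 (adjusted p = 0.00209) and 0.42 (adjusted p = 0.00407). Itgb3 had one of -0.85 (adjusted p = 0.0262). The osteoclast genes Calcr, Oscar and Dcstamp were at or near 0 in both groups. Skeletal muscle markers summed to 25.6 to 27.5 CPM in bone and 1.89 to 3.12 CPM in marrow, with most of the bone sum from Tnni2 and with Myh4 and Pax7 at 0 in both groups. Schwann cell and nerve markers summed to 129 to 131 CPM in bone and 78.2 to 89.8 CPM in marrow, most of it from S100b and Ncam1. B cell markers summed to at most 19.9 CPM, T and NK cell markers to at most 2.58 CPM, megakaryocyte markers to at most 8.93 CPM and blood progenitor markers to at most 61.3 CPM in any library. Of 6 tested blood progenitor markers, 0 were higher in bone and 2 lower. Kit averaged 1.55 ± 1.08 CPM in bone and 23.5 ± 9.72 CPM in marrow (adjusted p = 0.0014). Gata1 averaged 0.502 ± 0.343 CPM in bone and 4.98 ± 1.79 CPM in marrow (adjusted p = 5.15e-04). Ighm, the 1 B cell marker tested, was higher in bone (adjusted p = 6.83e-04). The part of these cells in the differences above was not tested.

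**Figure D4:**
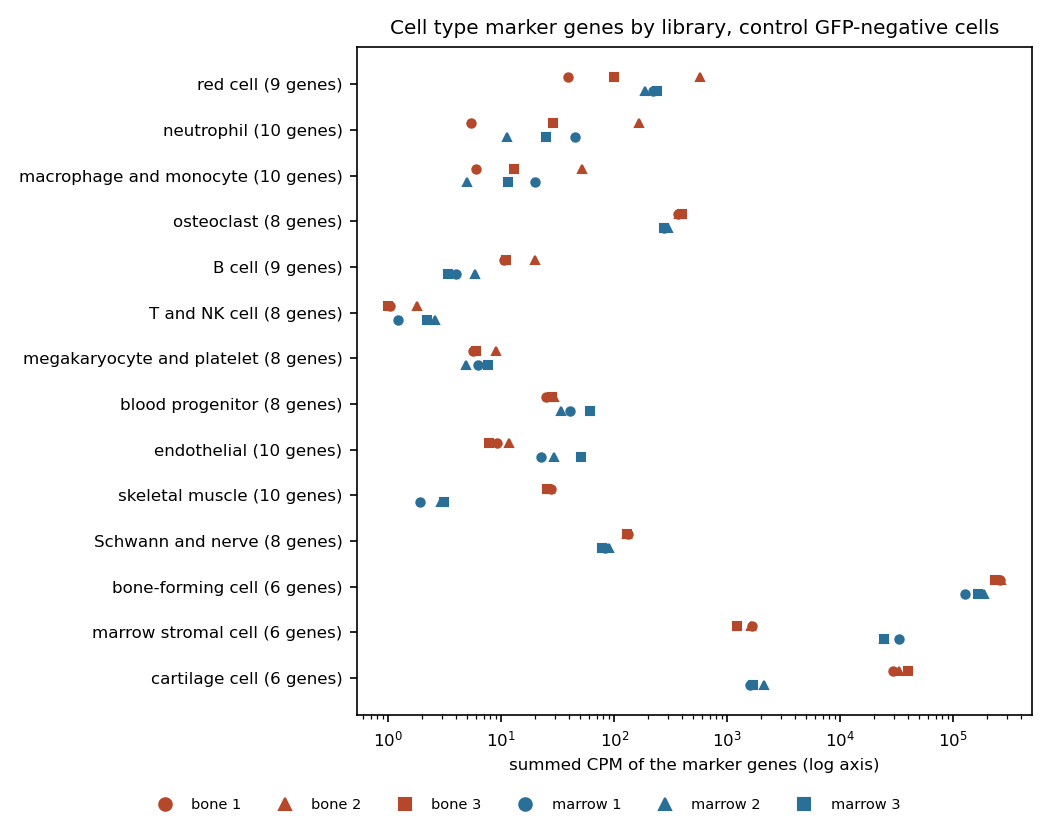
Summed CPM of marker genes (log axis) of 14 cell types in each bone library (red, upper row of each pair) and each marrow library (blue, lower row), with circles, triangles and squares for libraries 1, 2 and 3. Bone-forming markers are highest in both groups, with most of their sum from Col1a1. Marrow stromal markers reach 33223 CPM in marrow and cartilage markers 39893 CPM in bone. Bone library 2 stands out for red cell markers at 578 CPM.

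Gene length moved with the comparison. Over genes, the log2 fold change had a Spearman correlation of -0.14 with the length of the merged exons (13621 genes, which share the 6 libraries), and the tenth of genes with the shortest models (median 1042 bases) had a median log2 fold change of 0.24, against -0.12 for the tenth with the longest (median 12230 bases). Removing each library's trend with length left 5435 genes called, of which 56.9% were higher in bone, against 49.4% before. Of the original calls, 4869 (88.7%) were kept in the same direction and 0 were called in the opposite direction. The part of length in single genes was not tested.

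The same comparison was fitted in the 6 GFP-negative libraries of the knockout mice, which are separate samples. There 6752 of 13752 genes tested (49.1%) were called. Of the 2713 genes higher in control bone, 1992 (73.4%) were called higher in knockout bone and 30 (1.11%) lower, and of the 2775 lower in control bone, 2052 (73.9%) were called lower and 47 (1.69%) higher. Background shares in the knockouts were 24.7% higher and 24.4% lower. The difference between the genotypes was not tested. The median log2 fold change of bone matrix genes was 0.72 in controls and 2.45 in knockouts, and that of osteocyte genes 0.89 in controls and 2.24 in knockouts. Medians are over the genes tested in each genotype, which for the osteocyte list were 17 in controls and 16 in knockouts. Cartilage collagens had medians of 3.77 in controls and 3.45 in knockouts, and marrow stroma genes -3.57 in controls and -2.84 in knockouts. Fat cell genes had -1.96 in controls and -2.98 in knockouts, glycolysis genes 1.19 in controls and 0.37 in knockouts, and cell cycle genes 0.46 in controls and 0.10 in knockouts. Col1a1 had a log2 fold change of 0.69 in controls and 2.69 in knockouts, and Bglap one of 1.09 in controls and 3.61 in knockouts. That of Ldha was 1.45 in controls and 0.62 in knockouts, and that of Cxcl12 -4.29 in controls and -3.31 in knockouts.

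**Figure D5:**
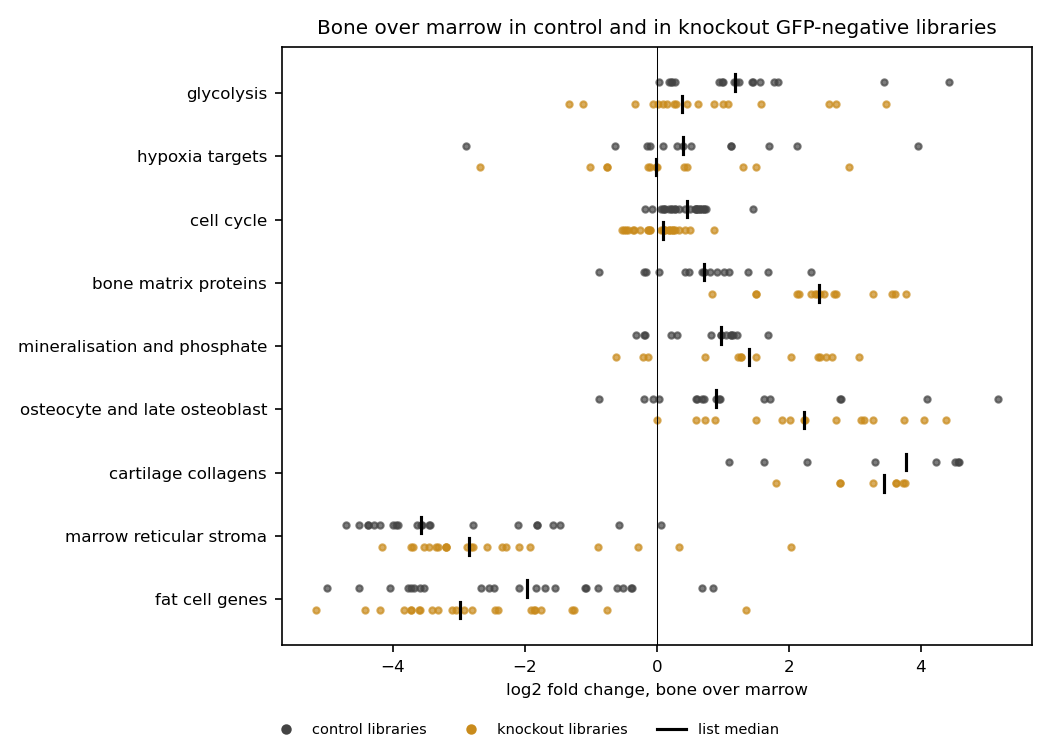
Log2 fold change, bone over marrow, of the members of 9 gene lists, with black bars at the list medians. Dark points are members tested in the control libraries and ochre points members tested in the knockout libraries, so the genes can differ between them. The median of bone matrix genes was 0.72 in controls and 2.45 in knockouts and that of glycolysis genes 1.19 in controls and 0.37 in knockouts, values set side by side with no test of their difference.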

How the data were processed

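RNA from sorted mouse cells was extracted with the RNeasy Plus Micro Kit and made into libraries with the SMART-Seq v4 and SMARTer ThruPLEX kits, per the labels' protocols. The authors deposited raw read counts per gene for each library, in the featureCounts layout per the file headers. Build mm10, STAR, featureCounts and DESeq2 are named in the submitters' processing notes. Versions, strand setting and treatment of reads with several matches are not given in the sources used here. Of 54446 gene IDs, 54409 matched a symbol, 53229 of them with the same version.

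Counts were analysed in R 4.3.3 with edgeR 4.0.16 (limma 3.58.1). Genes were kept by filterByExpr (minimum count 10, minimum total 15) and scaled by TMM. A robust quasi-likelihood fit used tissue and replicate number as terms on the 6 libraries, with 2 residual degrees of freedom, a common dispersion of 0.0299 and a median prior of 5.42 degrees of freedom. P-values were adjusted by the Benjamini-Hochberg method over all genes tested, with a threshold of 0.05. Standard errors were taken from the fit, as the absolute log2 fold change over the root of F. TPM used the merged exon length in the files. Replicates were checked to differ by more than sampling noise. The procedure was tested on simulated data.

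Genes are named by a rule: the 14 largest called changes on each side among genes whose higher group averaged 5 CPM or more and whose libraries did not overlap, up to 5 members of each list by p and up to 2 by level, and a few fixed genes. That gave 214 genes, some of which are not reported here. The gene lists and the genes in them were chosen with earlier results of these data known. The 11 alternatives were RLE size factors, library totals alone, no filter, no replicate block, all 9 control libraries, all 18 libraries, DESeq2 1.42.0, the length trend removed, and each replicate left out.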

Additional observations from a re-analysis of the deposited data

Results flagged for a closer look

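For 5 of the genes named by the rule, every control library pair moved one way between bone and marrow and every knockout pair the other way. The difference between the genotypes was not tested for any of them. Mmp13, the collagenase of cartilage and bone, had a log2 fold change (bone over marrow) of -1.08 in controls (adjusted p = 4.23e-04) and of 0.84 in knockouts (adjusted p = 3.55e-04). Tpm1, a tropomyosin, had -0.56 in controls (adjusted p = 0.00199) and 0.29 in knockouts (adjusted p = 0.0396). Adm, which encodes adrenomedullin, had 1.70 in controls (adjusted p = 1.05e-04) and -0.75 in knockouts (adjusted p = 0.00686). Eno1, a glycolytic enzyme, had 1.20 in controls (adjusted p = 1.43e-05) and -0.33 in knockouts, where it was not called (adjusted p = 0.0841). Dnajb1, a heat shock co-chaperone, had 1.65 in controls (adjusted p = 5.95e-06) and -0.22 in knockouts, where it was not called (adjusted p = 0.11).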

How the results depend on the processing

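Over the 11 alternatives 0 control calls were made in the opposite direction, and 185 of the 203 called named genes kept their call in every one. The number of genes called ran from 3982 to 4303 when a replicate was left out (1929 to 2138 higher, 2013 to 2165 lower), against 5488. With library totals alone 1662 genes were higher and 4532 lower, and list medians were -3.81 for marrow stroma, -3.0 for blood cell regulators, 0.17 for osteoblast factors, 0.64 for osteocyte genes, 1.22 for cartilage factors, 3.52 for cartilage collagens, 4.25 for cartilage proteoglycans, 0.41 for collagen enzymes, -0.25 for metalloproteases, 0.35 for Wnt antagonists, -0.27 for Wnt ligands, -0.68 for BMP, -0.84 for FGF, 0.94 for glycolysis, -0.00 for the respiratory chain, 0.22 for the cell cycle, -1.49 for interferon, -0.06 for the unfolded protein response and -0.50 for HOX genes. With the length trend removed they were 3.93 for cartilage collagens, 4.37 for cartilage proteoglycans, 0.07 for metalloproteases, 0.12 for Wnt ligands, -0.30 for BMP and -1.40 for interferon. With all 18 libraries the glycolysis median was 1.23. Leaving out each replicate gave -0.25 to 0.11 for the Pth1r pathway, 0.71 to 1.07 for mineralisation, 1.18 to 1.54 for cartilage factors, 4.34 to 4.64 for cartilage proteoglycans, 1.30 to 2.13 for periosteal genes, -0.09 to 0.10 for metalloproteases, 0.60 to 0.78 for Wnt antagonists, -0.06 to 0.19 for Wnt ligands, -0.35 to -0.23 for BMP, -1.57 to -0.66 for complement, 1.16 to 1.23 for glycolysis, 0.04 to 1.07 for hypoxia, 0.30 to 0.61 for the cell cycle and -1.35 to -1.26 for interferon. The medians of 6 lists changed sign in at least 1 alternative. The cause of these shifts was not tested.

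Replicate pairing was checked by correlating same-numbered deviations from the group means. Over all 13621 genes r was 0.087, 0.060 and 0.133 for numbers 1, 2 and 3. The check as planned needed every pair over 0.1, which numbers 1 and 2 did not reach, so it was not passed. Each library correlated best with its own number. Over the 6216 genes above 4 on the log2 CPM scale, a limit chosen after seeing the data, r was 0.237, 0.255 and 0.282. Without the replicate block 5365 genes were called, 5122 of them (93.3% of the original calls) also called with it.

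A call was lost without replicate 3 for Col1a1 and Cenpa, without replicate 1 for Atp5c1, without replicates 1 and 2 for P2rx1, Wnt5a, Atp5b and Hspa5, without replicates 1 and 3 for Col1a2 and Dmp1, and without each replicate in turn for Rrm2. Depth limits the genes near the floor of 3 counts, such as Slc10a4 and Sost in marrow and Grip2 in bone.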

Other observations

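Of 19 tested HOX and limb patterning factors, 5 were higher in bone and 5 lower (median log2 fold change -0.26), against 19.9% higher and 20.4% lower over all genes, so these shares are near the background. Hoxa10 averaged 44.4 ± 5.07 CPM in bone and 91.5 ± 12.7 CPM in marrow (log2 fold change -1.04 ± 0.12, adjusted p = 4.56e-04), and Hoxa9 7.5 ± 1.34 CPM in bone and 22.2 ± 1.14 CPM in marrow (log2 fold change -1.58 ± 0.15, adjusted p = 1.95e-04). Hoxc10 was higher, at 17.3 ± 1.95 CPM in bone and 8.91 ± 0.645 CPM in marrow (log2 fold change 0.96 ± 0.16, adjusted p = 0.00288). Tbx4, a T-box factor of the hindlimb, averaged 7.43 ± 1.33 CPM in bone and 1 ± 0.277 CPM in marrow (log2 fold change 2.89 ± 0.31, adjusted p = 2.96e-04), and Pitx1, which acts upstream of it, 29.5 ± 7.1 CPM in bone and 16.7 ± 3.74 CPM in marrow (log2 fold change 0.81 ± 0.12, adjusted p = 0.00153). Tbx5, its forelimb counterpart, named here after its value was seen, was too low to be tested, at 0.421 ± 0.331 CPM in bone and 0.202 ± 0.23 CPM in marrow. The sources used here do not give which limbs or bones the cells came from, and the part of bone site in these differences was not tested.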
